A study of Danio rerio with 6 samples.

Results

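The Balbiani body is a transient aggregate of mitochondria, endoplasmic reticulum and RNA that forms beside the nucleus of the early vertebrate oocyte, moves to the future vegetal pole and carries the germ plasm, the material that specifies the germ cells of the next generation. In zebrafish its formation depends on Bucky ball, the product of buc. The proteins of the rbpms2 pair bind RNA and associate with Bucky ball. Larp6 proteins belong to the La-related family of RNA-binding proteins, and maternal Larp6 is needed for a normal egg envelope in zebrafish. The genes described here were chosen by name, with earlier results of these data known: buc, buc2l, velo1, rbpms2a, rbpms2b, larp6a and larp6b. Of these 7 names, 6 have a row among the 31743 genes of the table, and all 6 were among the 23576 genes that passed the low-count filter. Velo1, named after the frog homologue of Bucky ball, has no row under that name and was not analysed here.

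RNA was sequenced from sorted, EGFP-positive germ cells of juvenile zebrafish (strain TL, 21 days after fertilization), a stage at which the gonad is still differentiating. Every fish carried the foxl2l:egfp reporter, and all libraries came from cells sorted for its signal. Transcripts of other cell types were present as small shares of the counts, as given below. The 3 foxl2l+/+ libraries and the 3 foxl2l-/- libraries differ in the foxl2l gene, which encodes a forkhead transcription factor of germ cells, and the study asks how it acts on entry into female meiosis. Around 300 sorted cells of each genotype are stated, the labels do not give the fish behind each library, and p-values therefore measure the spread between libraries, which may be technical. Libraries held 25176401 to 39189535 counts. Log2 CPM profiles correlated at 0.951 to 0.954 among foxl2l+/+ libraries, 0.944 to 0.969 among foxl2l-/- libraries and 0.862 to 0.892 between genotypes, with foxl2l-/- replicate 3 farthest from its group. The mutant allele is not described in the labels, and reads from foxl2l itself were present in both genotypes. Foxl2l stood at 627 ± 120 CPM (counts scaled to library size) in foxl2l+/+ and 978 ± 189 CPM in foxl2l-/- (SD, n = 3). It was called higher in foxl2l-/- cells, by 0.64 ± 0.20 log2 units (SE), at an edgeR adjusted p of 0.0263. With reads in both genotypes, its level does not check the genotype. The germ cell marker ddx4 stood at 1320 ± 111 TPM (a level scaled to gene length and depth) in foxl2l+/+ and 1247 ± 208 TPM in foxl2l-/- cells (SD, n = 3). In CPM it was at 2422 ± 292 and 1901 ± 167, without overlap of the groups, and was not called.

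Of the 6 genes, buc, rbpms2a, rbpms2b, larp6a and larp6b were lower in foxl2l-/- cells, and buc2l did not pass the test. Larp6b fell most, 75.5-fold, followed by rbpms2b at 20.7-fold and buc at 17.3-fold. Rbpms2a fell 6.21-fold and larp6a 1.88-fold, and the larp6a call ended in 8 of 17 alternatives. Calls were made by the quasi-likelihood test of edgeR at a Benjamini-Hochberg adjusted p below 0.05 over all 23576 genes. It called 15.8% of all tested genes lower, 15.7% higher and 31.6% in either direction, against 5, 0 and 5 of the 6. The CPM ranges of the genotypes did not overlap for 5 of the 6 genes, all lower in foxl2l-/-. Over all tested genes this held for 46.7% in either direction and for 22.8% lower in foxl2l-/-. In TPM, where larp6a overlapped, it held for 4 of the 6, against 47.6% of all tested genes in either direction. The median log2 fold change of foxl2l-/- over foxl2l+/+ was -3.37 over the 6 genes and 0.05 over all tested genes. A call together with a log2 fold change of -4 or below was made for 0.649% of tested genes and for 3 of the 6. That cut was not planned, and buc lies close to it. In some alternatives buc missed it, such as library totals (-3.92), limma-trend on log2(TPM + 1) (-3.76) and the fit without foxl2l+/+ replicate 1 (-3.90). In bulk libraries, fewer cells of a type and less RNA per cell cannot be told apart.

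**Figure D1:**
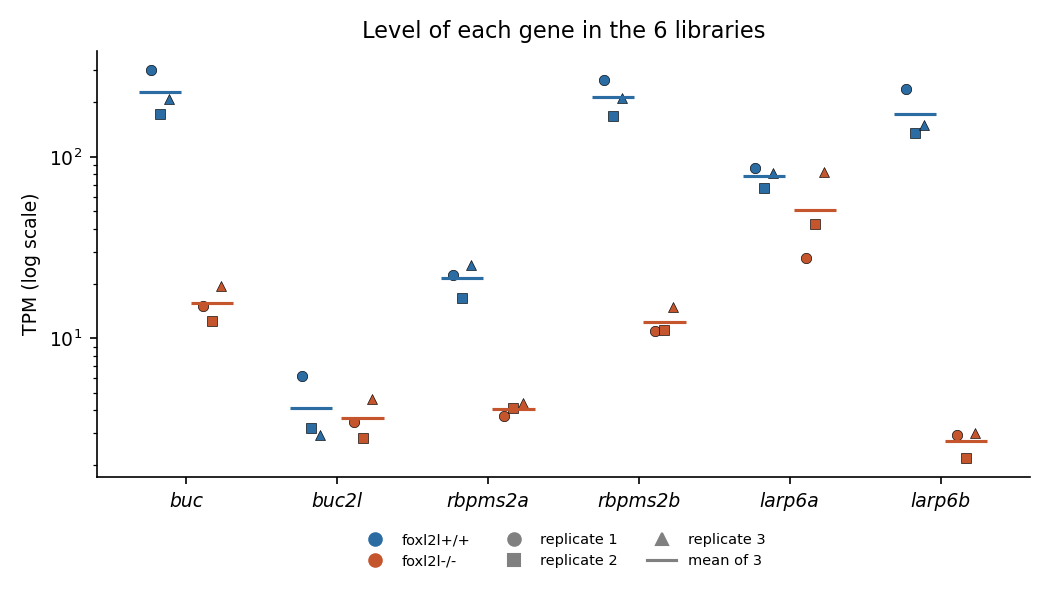
TPM on a log scale of each gene in the 3 foxl2l+/+ (blue) and 3 foxl2l-/- (orange) libraries, with the replicate number as the marker shape and a horizontal line at the mean of 3. The groups are widely separated for buc, rbpms2a, rbpms2b and larp6b, and overlap for buc2l and larp6a.

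Buc encodes Bucky ball, the organiser of the Balbiani body, and lies on the forward strand of chromosome 2, at 27855102 to 27859558 in GRCz11 (ENSDARG00000096095). Its level in foxl2l+/+ replicates 1, 2 and 3 was 300 TPM, 172 TPM and 207 TPM, and in foxl2l-/- replicates 1, 2 and 3 it was 15.04 TPM, 12.4 TPM and 19.3 TPM. The lowest foxl2l+/+ library lay far above the highest foxl2l-/- library. The counts behind these levels were 9571 to 20247 in foxl2l+/+ and 874 to 1158 in foxl2l-/- libraries, so low depth does not limit them. Buc fell by 4.11 log2 units (SE 0.24; edgeR adjusted p = 5.00e-07), the rank 137 from the lowest fold change of all tested genes. The first 475 bases of buc are also covered by a clone-named gene on the opposite strand, which took 156 to 711 counts per library, and since the library chemistry does not keep strand, reads from that stretch cannot be told apart.

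Buc2l, a gene named for its similarity to buc, lies on the reverse strand of chromosome 12, at 14138340 to 14143344 (ENSDARG00000096628), and the RefSeq gene table of assembly GRCz12tu classes it as a long non-coding RNA. It was the lowest of the set in foxl2l+/+ cells, at 6.16 TPM, 3.22 TPM and 2.92 TPM in replicates 1, 2 and 3, and stood at 3.45 TPM, 2.81 TPM and 4.61 TPM in foxl2l-/- replicates 1, 2 and 3. The 2 groups overlapped. Its counts, 135 to 416 in foxl2l+/+ and 198 to 277 in foxl2l-/- libraries, give a log2 fold change of -0.43 ± 0.37 (SE; edgeR adjusted p = 0.405). The 95% interval of that difference ran from -1.22 to 0.36, which does not reach the interval of buc, -4.63 to -3.59.

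Rbpms2b encodes an RNA recognition motif protein of the Hermes type that binds Bucky ball and marks the Balbiani body, and lies on the reverse strand of chromosome 7 at 48252638 to 48263633 (ENSDARG00000079578). Foxl2l+/+ replicates 1, 2 and 3 held 266 TPM, 168 TPM and 210 TPM, and foxl2l-/- replicates 1, 2 and 3 held 11.0 TPM, 11.1 TPM and 14.8 TPM. Foxl2l-/- libraries were close together and well below all foxl2l+/+ libraries. Rbpms2b fell by 4.37 log2 units (SE 0.21; edgeR adjusted p = 1.77e-07).

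Rbpms2a encodes the paralogous protein, which acts redundantly with Rbpms2b in the zebrafish ovary, and lies on the forward strand of chromosome 25 at 6122823 to 6153077 (ENSDARG00000045930). It was expressed at a lower level than its paralog in both genotypes. Levels were 22.3 TPM, 16.6 TPM and 25.3 TPM in foxl2l+/+ replicates 1, 2 and 3, against 3.73 TPM, 4.13 TPM and 4.41 TPM in foxl2l-/- replicates 1, 2 and 3. The groups did not overlap, and foxl2l-/- libraries were nearly alike in CPM, at 10.5 ± 0.0962 (SD, n = 3). In TPM the same libraries varied more, at 4.09 ± 0.340, and an SD of 3 values is itself uncertain. Rbpms2a fell by 2.63 log2 units (SE 0.22; edgeR adjusted p = 6.63e-06).

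Larp6b, on the reverse strand of chromosome 11 at 6446235 to 6452492 (ENSDARG00000003968), changed the most of the set. It was among the abundant transcripts of foxl2l+/+ cells, at 236 TPM, 135 TPM and 149 TPM in replicates 1, 2 and 3. In foxl2l-/- replicates 1, 2 and 3 it was at 2.94 TPM, 2.19 TPM and 3.01 TPM, from 87 to 120 counts. Larp6b fell by 6.24 log2 units (SE 0.28; edgeR adjusted p = 1.04e-07), rank 30 from the lowest fold change of all tested genes.

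Its paralog larp6a, on the forward strand of chromosome 18 at 173603 to 194844 (ENSDARG00000005355), differed much less between the genotypes. Foxl2l+/+ replicates 1, 2 and 3 held 86.2 TPM, 67.6 TPM and 81.7 TPM, and foxl2l-/- replicates 1, 2 and 3 held 27.8 TPM, 42.9 TPM and 82.0 TPM. Foxl2l-/- replicate 3 lay within the foxl2l+/+ range in TPM, whereas in CPM, at 90.4, it stayed below the lowest foxl2l+/+ library at 102. Larp6a fell by 0.91 log2 units (SE 0.28; edgeR adjusted p = 0.0257). The call ended in edgeR's test without foxl2l+/+ replicate 1, 2 or 3 (adjusted p = 0.0759, 0.0551 and 0.0918) and without foxl2l-/- replicate 1 or 2 (0.0713 and 0.121). Without foxl2l-/- replicate 3 it was -1.35 (edgeR adjusted p = 6.98e-04), and over all 17 alternatives the adjusted p ran from 5.21e-04 to 0.121.

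**Figure D2:**
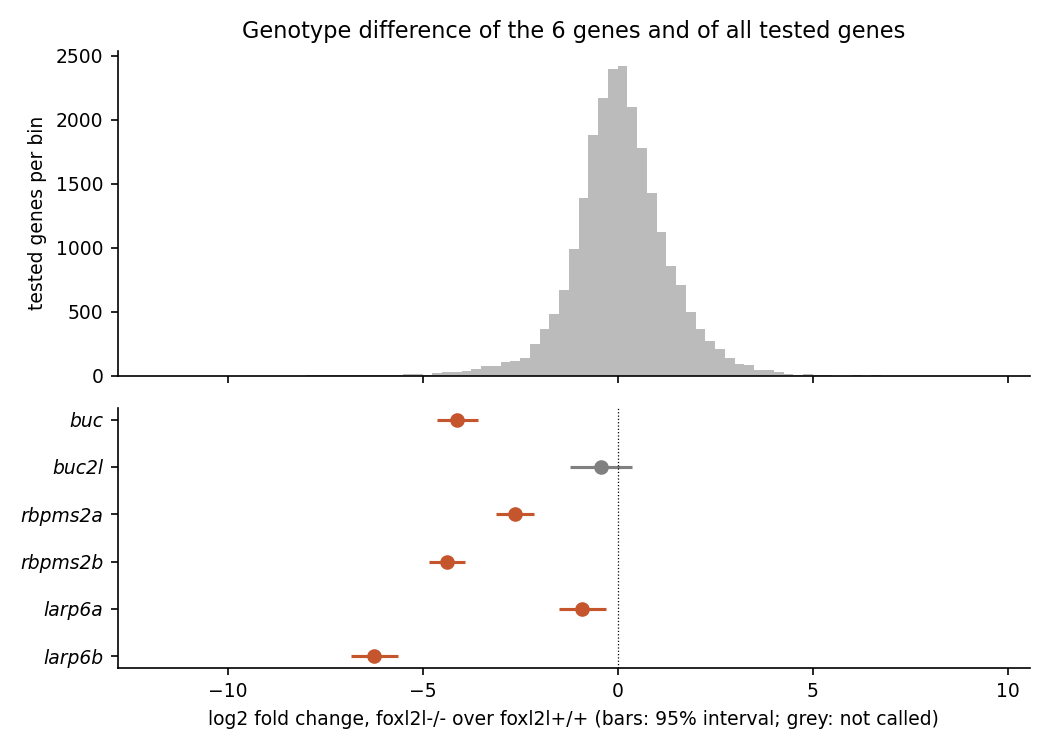
Top, number of tested genes per bin of 0.25 in log2 fold change of foxl2l-/- over foxl2l+/+. Bottom, log2 fold change of each of the 6 genes with its 95% interval, in orange where called and grey where not. Larp6b, rbpms2b and buc lie in the left tail of all genes, at -6.24, -4.37 and -4.11, and the interval of buc2l spans 0.

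The order of the levels changed with the genotype. In foxl2l+/+ cells the mean TPM fell in the order buc (227 ± 66.3), rbpms2b (214 ± 49.2), larp6b (173 ± 54.5), larp6a (78.5 ± 9.72), rbpms2a (21.4 ± 4.40) and buc2l (4.10 ± 1.79; SD, n = 3 each). Buc and rbpms2b overlapped in range, as did rbpms2b and larp6b, while larp6b, larp6a, rbpms2a and buc2l were each separated from the next. In foxl2l-/- cells larp6a led at 50.9 ± 28.0 TPM, ahead of buc (15.6 ± 3.46), rbpms2b (12.3 ± 2.13), rbpms2a (4.09 ± 0.340), buc2l (3.63 ± 0.911) and larp6b (2.71 ± 0.453). Larp6b thus went from the third place to the last, and the ranges of rbpms2a, buc2l and larp6b there overlapped from one neighbour to the next, as did those of buc and rbpms2b.

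Summed over the 6 genes, the level was 562 to 916 TPM in foxl2l+/+ and 64.0 to 128 TPM in foxl2l-/- libraries. Larp6a made up 9.41% to 12.1% of that sum in foxl2l+/+ and 43.4% to 64.0% in foxl2l-/- libraries. Set against the germ cell transcript ddx4 in the same library, buc went from 17.5 ± 6.76 TPM per 100 TPM of ddx4 in the foxl2l+/+ group to 1.25 ± 0.189 in the foxl2l-/- group (SD, n = 3). The same ratio for larp6b was 13.4 ± 5.51 and 0.221 ± 0.0479.

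In 3 pairs of related genes, the ratio of their levels was lower in foxl2l-/- libraries. The ratio of rbpms2b to rbpms2a was 8.30 to 11.9 in foxl2l+/+ libraries and 2.70 to 3.35 in foxl2l-/- libraries, from TPM within each library. On the log2 scale, with 0.1 TPM added, the ratio changed by -1.76 ± 0.18 (SE). For larp6b over larp6a it went from 1.83 to 2.73 in foxl2l+/+ down to 0.0367 to 0.106 in foxl2l-/- libraries, a change of -5.16 ± 0.48 on the log2 scale (SE), so that the more abundant paralog of one genotype was the less abundant of the other. Buc over buc2l changed by -3.71 ± 0.16 (SE), from 48.7 to 71.0 in foxl2l+/+ to 4.19 to 4.42 in foxl2l-/- libraries. In each of these 3 pairs all foxl2l-/- libraries lay below all foxl2l+/+ libraries, and the exact permutation p (two-sided) was 0.1, which is as small as 3 libraries a group can give, and 0.1 after Benjamini-Hochberg adjustment over the 3 pairs. How reads matching both genes of a pair were counted is not stated, so sharing of reads between paralogs was not tested.

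**Figure D3:**
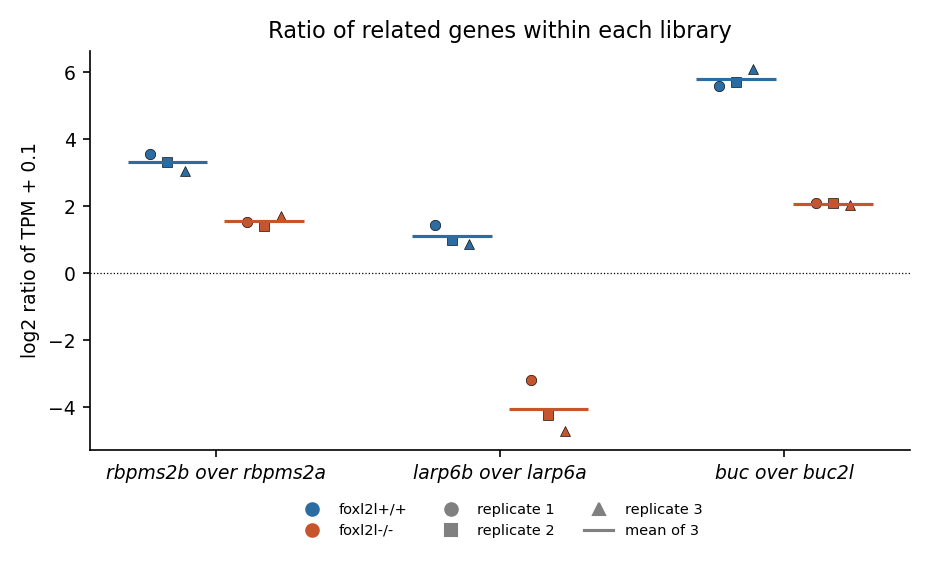
Log2 ratio of TPM + 0.1 between related genes within each library, foxl2l+/+ in blue and foxl2l-/- in orange, with replicate numbers as marker shapes and lines at the mean of 3. Each ratio is lower in all foxl2l-/- libraries, and larp6b over larp6a crosses 0, where both genes have the same TPM.

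Within a genotype the genes did not all vary together. Foxl2l+/+ replicate 1 held the highest CPM of every gene but rbpms2a, which was highest in replicate 3, and replicate 2 held the lowest of every gene but buc2l. The coefficient of variation in foxl2l+/+ libraries ran from 7.58% for larp6a to 40.3% for buc2l (CPM, n = 3). In foxl2l-/- libraries larp6a varied most in CPM, at 47.6%, and rbpms2a least, at 0.917%.

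Similarity of profiles over the 6 libraries was described by the distance between log2 CPM values after each gene's mean was subtracted. Within the set, buc and rbpms2b were closest, at a distance of 0.41, and the other pairs lay 1.36 to 7.13 apart. Outside the set, among tested genes without a clone name, the 3 nearest transcripts were the same for buc and rbpms2b. These were zte38, named for expression in testis, at a distance of 0.48 from buc and 0.46 from rbpms2b, then the ankyrin repeat gene ANKRD66 (0.55 and 0.61) and meiob (0.58 and 0.62), whose product acts in meiotic recombination. The log2 fold changes of zte38, ANKRD66 and meiob were -4.11, -4.09 and -4.13, against -4.11 for buc and -4.37 for rbpms2b. This likeness follows from the choice, since the distance includes the genotype difference and so picks genes of similar fold change. Nearest to larp6b were the maternal linker histone gene h1m (0.66), tor1l1 (0.69) and the claudin gene cldnd (0.98). Nearest to rbpms2a were mindy3 (0.41), parvaa (0.50) and taf4b (0.51), a subunit of the TFIID complex needed for oocyte development in mice. Larp6a was closest to smg5 (0.15), which acts in nonsense-mediated decay, to cpeb1a (0.22), a regulator of cytoplasmic polyadenylation in oocytes, and to elac2 (0.25). Buc2l was closest to sept6, znf16l and peli2 (0.25, 0.33 and 0.34).

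Of 10 other genes tied to the Balbiani body, 2 were called lower, 0 higher and 8 were not called, a share near the 15.8% of all tested genes called lower, with a median log2 fold change of -0.04 against 0.05 over all tested genes. That median was 0.16 with scaling by library totals, which moved the median of all tested genes to 0.25. The 2 that fell were zar1, an oocyte RNA-binding factor, by 2.90 ± 0.25 log2 units (SE), going from 349 ± 126 to 55.1 ± 9.45 TPM (SD, n = 3), and igf2bp3, a maternal mRNA-stabilising protein, by 1.58 ± 0.20. The cytoskeletal linker macf1a, whose loss leaves the Balbiani body enlarged and persistent in zebrafish, had a log2 fold change of -0.08 ± 0.30. Tdrd6, a Tudor protein that interacts with Bucky ball, stood at 0.43 ± 0.23, and the kinesin gene kif5ba, whose product takes Bucky ball to its site in the embryo, at 0.86 ± 0.36. For these last 3 genes the adjusted p was 0.863, 0.176 and 0.0908 in edgeR's test, and kif5ba was called higher with library totals and without foxl2l-/- replicate 1 (smallest adjusted p = 0.0301). Sybu, uncalled at -0.62 ± 0.28, was called lower with limma-voom and without foxl2l-/- replicate 3 (smallest adjusted p = 0.00469), where 3 of the 10 were lower.

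Germ plasm transcripts and germ granule proteins went both ways. Of 10 listed, 9 were tested, of which 3 were called lower and 1 higher, against 15.8% and 15.7% of all tested genes. Their median log2 fold change was -0.22, and -0.01 with library totals and 0.01 on the TPM scale. Over all tested genes the median was 0.05, and 0.25 with library totals and 0.19 or 0.28 in the TPM fits. Ca15b, a germ plasm RNA related to carbonic anhydrases, fell by 3.20 ± 0.43 log2 units (SE) and rgs14a fell by 1.68 ± 0.28. Nanos3, a translational repressor of germ cells, rose by 1.01 ± 0.28 (edgeR adjusted p = 0.0163), a call that ended without foxl2l+/+ replicate 3 and without foxl2l-/- replicate 2 (largest adjusted p = 0.0661). Dnd1, which protects germ cell mRNAs, fell by 0.53 ± 0.18 (edgeR adjusted p = 0.0387), a call that ended in 8 alternatives, among them those without foxl2l+/+ replicate 1 or 3 and foxl2l-/- replicate 1 or 2 (largest adjusted p = 0.288). Ddx4, dazl and piwil1, which mark germ cells of both sexes, were not called, with log2 fold changes of -0.35 ± 0.16, 0.46 ± 0.18 and -0.21 ± 0.21. Dazl was called higher in 6 alternatives, namely library totals, limma-voom, both TPM fits, and the fits without foxl2l+/+ replicate 3 or foxl2l-/- replicate 3 (smallest adjusted p = 0.00588). Ddx4 was called lower with limma-voom (adjusted p = 0.0132), and piwil1 changed sign, uncalled, on the TPM scale. The hook2 row matched to the list had no count in any library.

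Of 9 other RNA-binding and translation genes of oocytes, 8 were called lower, where 15.8% of all tested genes were. Their median log2 fold change was -1.62. Pabpc1l, the oocyte poly(A)-binding protein, fell by 4.53 ± 0.33 log2 units (SE), going from 121 ± 45.7 to 6.33 ± 2.85 TPM (SD, n = 3). Patl2, listed under a clone name, fell by 2.22 ± 0.28, lsm14b by 1.96 ± 0.25 and the translation factor gene eif4e1b by 1.73 ± 0.17. The exception, mex3b, had a log2 fold change of 0.46 ± 0.44. With limma-trend on TPM, without foxl2l+/+ replicate 1 or without foxl2l-/- replicate 2, 6 of the 9 were called lower.

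Of 7 La and La-related genes other than larp6, 1 was called lower, 0 higher and 6 were not called, again near the 15.8% of all tested genes called lower, with a median log2 fold change of -0.07. With library totals 1 was higher, 1 lower and the median 0.14, against 0.25 over all tested genes. With limma-voom or without foxl2l-/- replicate 3, 3 were lower. The one called was ssb, the La protein itself, which fell by 1.32 ± 0.21 log2 units (SE), going from 137 ± 43.1 to 65.1 ± 0.0943 TPM (SD, n = 3). Next by p were larp4ab and larp7, at -0.52 ± 0.21 and 0.35 ± 0.17, which were not called. The related gene rbpms had few counts, 8 to 12 in foxl2l+/+ and 25 to 54 in foxl2l-/- libraries. Its level was 1.05 ± 0.158 and 3.99 ± 1.80 TPM (SD, n = 3). Its log2 fold change of 1.64 ± 0.69 (SE) was not called (edgeR adjusted p = 0.0892). It was called higher in both limma-trend fits on TPM (smallest adjusted p = 0.0127).

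**Figure D4:**
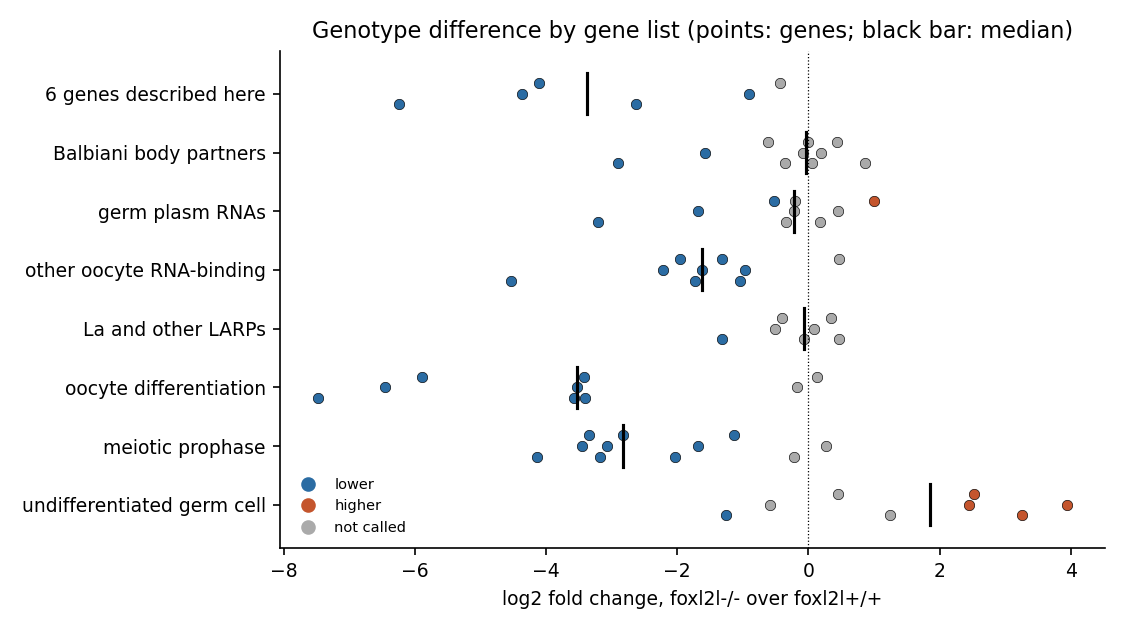
Log2 fold change of foxl2l-/- over foxl2l+/+ for each tested gene of 8 lists, blue where called lower, orange where called higher and grey where not called, with a black bar at the median of the list. The medians of the 6 genes, the oocyte list and the meiotic list are at -3.37, -3.53 and -2.83, while those of the Balbiani body partners, germ plasm RNAs and La family lie between -0.22 and -0.04.

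Most oocyte and meiotic markers were called lower in foxl2l-/- cells, while markers of undifferentiated germ cells went both ways. Over all tested genes, 15.8% were called lower and 15.7% higher. Of 9 oocyte differentiation genes tested, 7 were called lower, with a median log2 fold change of -3.53. Of 11 meiotic prophase genes 9 were called lower, with a median of -2.83. Of 8 genes of undifferentiated germ cells 4 were called higher and 1 lower, with a median of 1.85. Their summed level was 965 to 1409 TPM in foxl2l+/+ and 84.2 to 111 TPM in foxl2l-/- libraries for the oocyte list, and 29.8 to 38.0 TPM and 207 to 240 TPM for the undifferentiated list. The oocyte transcription factor gene figla fell by 7.48 ± 0.36 log2 units (SE), zglp1 fell by 6.45 ± 0.28 and h1m fell by 5.90 ± 0.34. Among meiotic genes, meiob fell by 4.13 ± 0.22, the cohesin gene rad21l1 by 3.08 ± 0.17 and msh4 by 3.18 ± 0.20. Among undifferentiated germ cell genes, id1, nanos2 and id4 rose by 3.95 ± 0.28, 3.26 ± 0.40 and 2.45 ± 0.35, while zbtb16a fell by 1.25 ± 0.21. The part of cell stage in the result was not tested.

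Markers of other cell types made up small shares of the counts, and their part in the result was not tested. In foxl2l-/- libraries these shares were in a similar range to those of the oocyte list (0.0111% to 0.0126%) and of the 6 genes (0.0103% to 0.0171%). Single markers could be higher, such as actc1b of skeletal muscle, at 52.1 and 42.0 TPM on average in foxl2l+/+ and foxl2l-/- cells. The blood marker hbaa1 stood at 128 TPM in foxl2l+/+ replicate 1, against 9.98 and 6.79 TPM in replicates 2 and 3. In foxl2l-/- libraries hbaa1 averaged 5.78 TPM. Its call as lower ended in 5 alternatives, among them the fit without foxl2l+/+ replicate 1. Smooth muscle and heart also express rbpms2 genes. Smooth muscle and heart markers summed to 0.00606% to 0.00816% of counts in foxl2l+/+ and 0.0110% to 0.0130% in foxl2l-/- libraries. Of 12 tested genes of that list 3 were called higher and 1 lower, where 15.7% and 15.8% of all tested genes were. No gene of that list was at 0 in every library. The heart light chain gene myl7 averaged 0.777 and 1.63 TPM in foxl2l+/+ and foxl2l-/- cells, smtnb 5.05 and 18.7 TPM, desma 2.46 and 10.2 TPM, desmb 8.93 and 13.3 TPM, and myh11a 6.90 and 6.13 TPM. Somatic gonad markers summed to 0.00608% to 0.00642% and 0.0109% to 0.0128% of counts, with 2 of 17 tested genes higher and 1 lower. Skeletal muscle markers (0.0122% to 0.0130% and 0.0143% to 0.0171%, 3 of 11 higher and 1 lower), neuron markers (0.00697% to 0.0109% and 0.00920% to 0.0100%, 3 of 7 higher and 1 lower) and blood markers (0.00861% to 0.0130% and 0.00878% to 0.0111%, 2 of 10 higher and 3 lower) were also low. The smallest p-values in these lists belonged to myh7 (-2.21), desma (1.83) and smtnb (1.61) for smooth muscle and heart, cyp17a1 (1.72), rspo1 (0.81) and cyp11a1 (-0.97) for somatic gonad, myl1 (3.24), myhz2 (2.32) and atp2a1 (-1.47) for skeletal muscle, stmn2a (2.52), elavl4 (-1.49) and gap43 (1.64) for neurons, and slc4a1a (-2.25), alas2 (-2.11) and cd74b (2.02) for blood, all as log2 fold changes.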

How the data were processed

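The authors deposited 1 table of 31743 genes. Per the file headers, its read counts are raw counts per gene, and its TPM values were scaled by the authors for gene length and depth. The log2 fold change and FDR p-value columns are the authors' deposited comparison. The submitters' processing notes name GRCz11. Aligner, counting program and annotation release: not given in the sources used here. Another 12 columns of RPKM and CPM values were not used. Per the labels' protocols, cDNA came from the SMART-Seq HT kit and libraries from Nextera XT, which do not keep strand.

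Counts were filtered with filterByExpr, scaled by TMM and tested with glmQLFit and glmQLFTest in edgeR 4.0.16 under R 4.3.3. Only the edgeR fit was run on simulated counts, drawn from its own dispersions and with fewer changed genes than were called here. The other steps were not simulated. CPM uses TMM-adjusted totals, and a standard error is the fold change divided by the root of its F statistic. Alternatives used RLE, TMMwsp or library totals, DESeq2 1.42.0, limma 3.58.1 (voom with quality weights, and trend on log2(TPM + 1) or log2(TPM + 0.1)), 2 other filters, a prior count of 0.5, a replicate block, and each library left out. Same-group libraries differed beyond sampling noise (chi-square per degree of freedom 33.17 to 120.9). The members and lists were chosen with earlier results of these data known. Named genes are the members, list genes (at least the 3 with the smallest p of each list), the 3 nearest profiles of each member (members and clone names left out), genes that overlap a member, and foxl2l.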

Additional observations from a re-analysis of the deposited data

How the results depend on the processing

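Buc, rbpms2a, rbpms2b and larp6b kept their direction and their call under all 17 alternatives, with log2 fold changes from -4.26 to -3.76, -2.77 to -2.12, -4.50 to -4.001 and -6.37 to -5.52, and buc2l stayed uncalled, from -0.61 to -0.07. Larp6a was no longer called with library totals (-0.71), with limma-trend on log2(TPM + 1) (-0.75) or log2(TPM + 0.1) (-0.76), or in 5 of the 6 fits that leave out 1 library (-0.98 to -0.65). The fit without foxl2l-/- replicate 3 kept the call, so that all 6 ran from -1.35 to -0.65. The cause was not tested. With the replicate number as a replicate block larp6a was at -1.01 and every call of the 6 genes was kept. No pairing by number was seen, since same-numbered libraries of the 2 genotypes correlated at -0.04, 0.05 and 0.04 in their deviations from the genotype means. With 3 libraries a group, a weak pairing could be missed. The changes in the 3 paralog ratios kept their sign in all 9 alternatives each. Over all genes, 49.8% of calls were higher in foxl2l-/- (3710 higher, 3733 lower), against 64.2% with library totals (4882 and 2723) and 66.8% on the TPM scale, and with library totals the all-gene median moved from 0.05 to 0.25 (log2). Fits without 1 library called 2708 to 3302 genes higher and 2600 to 3753 lower. The alternatives planned for velo1 and for buc over velo1 were not run. With about 300 cells of each genotype, amplified reads are not independent molecules.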

Other observations

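The rbpms2 paralogs each have a cpeb1 paralog as their neighbour in the table. Cpeb1b ends 1403 bases before the start coordinate of rbpms2b on the same strand of chromosome 7, and cpeb1a lies 40314 bases before rbpms2a on chromosome 25. Cpeb1a and cpeb1b, which encode cytoplasmic polyadenylation element binding proteins, fell by 1.04 ± 0.29 and 0.96 ± 0.26 log2 units (SE), less than rbpms2a (-2.63 ± 0.22) and rbpms2b (-4.37 ± 0.21). The differences between these neighbours were not tested. Both cpeb1 genes were highest among foxl2l-/- libraries in replicate 3, at 76.7 CPM and 145 CPM against 31.1 and 41.4 CPM for cpeb1a and 71.8 and 75.9 CPM for cpeb1b in replicates 1 and 2. Larp6a shows the same order of these libraries, at 35.9, 51.1 and 90.4 CPM. This order is not particular to larp6a and the cpeb1 genes. Genes of other lists, such as tdrd6, kif5ba, piwil2 and larp4b, had it too, while others, such as dazl and ssb, had the reverse. The calls of cpeb1a and cpeb1b ended on the TPM scale, without foxl2l+/+ replicate 1 and without foxl2l-/- replicate 2, and that of cpeb1a also without foxl2l+/+ replicate 3, with adjusted p of at most 0.0858 and 0.0832 in the tests run.

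The other genes next to the 6 were mostly near background or uncalled. Rnf152, 8272 bases beyond buc, stood at 0.324 CPM in foxl2l+/+ cells, where buc averaged 447 CPM. Gadd45ba, 3654 bases beyond larp6b, had a log2 fold change of 0.16 ± 0.28 and kbtbd2, 6342 bases beyond buc2l, one of -0.32 ± 0.20. The ornithine decarboxylase antizyme gene oaz2a, 33746 bases beyond rbpms2a, was called higher, at 1.15 ± 0.35 (adjusted p = 0.0261 in edgeR's test). These neighbours were named after their values were seen.

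Type I collagen mRNAs, which LARP6 binds in mammals, did not move one way. Col1a1b fell by 1.41 ± 0.27 and col1a2 by 1.07 ± 0.33 log2 units (SE), while col1a1a rose by 0.93 ± 0.28. Col1a1b, col1a2 and col1a1a stood at 21.3 ± 6.56, 9.03 ± 2.21 and 3.34 ± 0.452 TPM in foxl2l+/+ cells (SD, n = 3). These genes also mark connective tissue cells. The call of col1a1a ended when foxl2l+/+ replicate 1, 2 or 3 or foxl2l-/- replicate 2 or 3 was left out. That of col1a2 ended without foxl2l+/+ replicate 2 or 3 or foxl2l-/- replicate 1 or 2, and with library totals or TPM.

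The authors' deposited table gives log2 fold changes of -4.08 for buc, -0.40 for buc2l, -2.60 for rbpms2a, -4.34 for rbpms2b, -0.87 for larp6a and -6.21 for larp6b, with an adjusted p of 0.0128 for larp6a and 0.575 for buc2l.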
